A study of Homo sapiens with 21 samples.

Results

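DGAT1, DGAT2 and SOAT1 encode enzymes of the endoplasmic reticulum that join a fatty acyl group to a lipid alcohol, and they were examined together because DGAT1 is the lipid gene named in the title of the study. They are 3 of the 26809 genes named in the RNA tables, they are represented there by 7 RefSeq transcripts, and all 3 passed the filter on low counts that left 13530 genes for testing. DGAT1 and DGAT2 both catalyse the last step of triacylglycerol synthesis, the transfer of an acyl group to diacylglycerol, and they belong to unrelated protein families. SOAT1, also called ACAT1, esterifies cholesterol and belongs with DGAT1 to the membrane-bound O-acyltransferase (MBOAT) family. Clear cell renal carcinoma takes its name from cells filled with stored lipid, and triacylglycerols and cholesterol esters are the neutral lipids kept in lipid droplets.

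RNA came from 3 groups of 3 libraries of 786-O, a widely used cell line derived from a human clear cell renal tumour. The control group carried a control guide RNA and is labelled JMJD6 wild type, and the other two groups carried the guide sg2 or the guide sg4 against JMJD6 and are labelled JMJD6 knockout. JMJD6 is a nuclear dioxygenase of the Jumonji family, and the series title links it to DGAT1. Chromatin immunoprecipitation (ChIP) peak lists from 786-O cells were given for JMJD6 in 4 libraries and for trimethylated lysine 4 of histone H3 (H3K4me3), a mark of active promoters, in 2 libraries. All groups share 1 cell line, no clone is named, and the labels call the RNA samples triplicates without saying that they were separate cultures, so p-values measure the spread between these libraries, which may be technical.

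The JMJD6 peak at DGAT1 is the result that carries a position. The only start-site sequence at hand for these genes is that of SOAT1, so that sequence is shown. The SOAT1 start region carries H3K4me3 and holds no JMJD6 peak, as is also the case at DGAT2. The sequence is the stretch of 250 bases before the SOAT1 start in the RefSeq promoter table (GRCh38.p14, plus strand, chr1:179293547-179293796), with the GC boxes and the CCAAT box in capitals.
SOAT1: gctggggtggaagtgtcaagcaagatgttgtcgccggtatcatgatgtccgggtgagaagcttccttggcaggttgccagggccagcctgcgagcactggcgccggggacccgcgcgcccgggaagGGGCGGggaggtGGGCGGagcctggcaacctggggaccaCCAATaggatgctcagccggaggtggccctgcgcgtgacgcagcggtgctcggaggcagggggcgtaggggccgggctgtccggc
A search of both strands found the GC box GGGCGG 2 times and the box CCAAT 1 time, and these motifs do not overlap. GGGCGG occurs in 42.6% and CCAAT in 32.0% of the 35116 promoters of the table over the same length. The letters TATAAA, found in 10.7% of promoters, and CACGTG, found in 6.34%, are not in this window. The window is 70.4% G or C and holds 21 CG dinucleotides, against medians of 58% and 11 over all promoters in the table.

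The targeted gene went with the labels. JMJD6 stood at 32.7, 32.6 and 36.8 TPM (transcript abundance scaled by length and library size) in the 3 control libraries, at 13.4, 11.3 and 12.9 TPM with sg2, and at 8.69, 10.4 and 7.56 TPM with sg4. Every knockout library was below every control library, and the mean of both guides gave JMJD6 a change of -1.56 ± 0.086 (SE) on the log2 scale (edgeR adjusted p = 5.41e-12). The libraries held 14224263 to 16300347 estimated counts each. Of the genes tested, 13.9% were called at an adjusted p under 0.05 when both guides were averaged and set against control, 936 higher and 941 lower, whereas a test on TPM with limma gave 316 higher and 1040 lower. That split lay 23.3% higher among the calls on TPM and 49.9% higher in the count fit. The kidney lineage gene PAX8 was at 127 to 178 TPM in the 9 libraries, while CA9, a common marker of clear cell tumours, was at 0.63 to 2.04 TPM. Markers of leukocytes, endothelium, liver and fat were at or near 0 (CD3E, CDH5 and ADIPOQ at 0 in all 9 libraries, PTPRC with a count in 1 library) apart from CD68, at 50.4 to 85.3 TPM.

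SOAT1 was the most abundant of the 3 acyltransferase genes, DGAT1 came next and DGAT2 was lowest. In the control libraries the mean levels were 50.9 ± 1.01 TPM for SOAT1, 22.0 ± 1.16 TPM for DGAT1 and 10.1 ± 1.26 TPM for DGAT2 (SD, n = 3). Since TPM is scaled by length, these levels can be set side by side. The order SOAT1, DGAT1, DGAT2 held in each of the 9 libraries, and the ranges over all 9 libraries did not overlap between neighbours in that order. Among the genes tested, 74.6% were lower than SOAT1 in the control mean, 52.4% were lower than DGAT1 and 33.8% were lower than DGAT2.

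**Figure D1:**
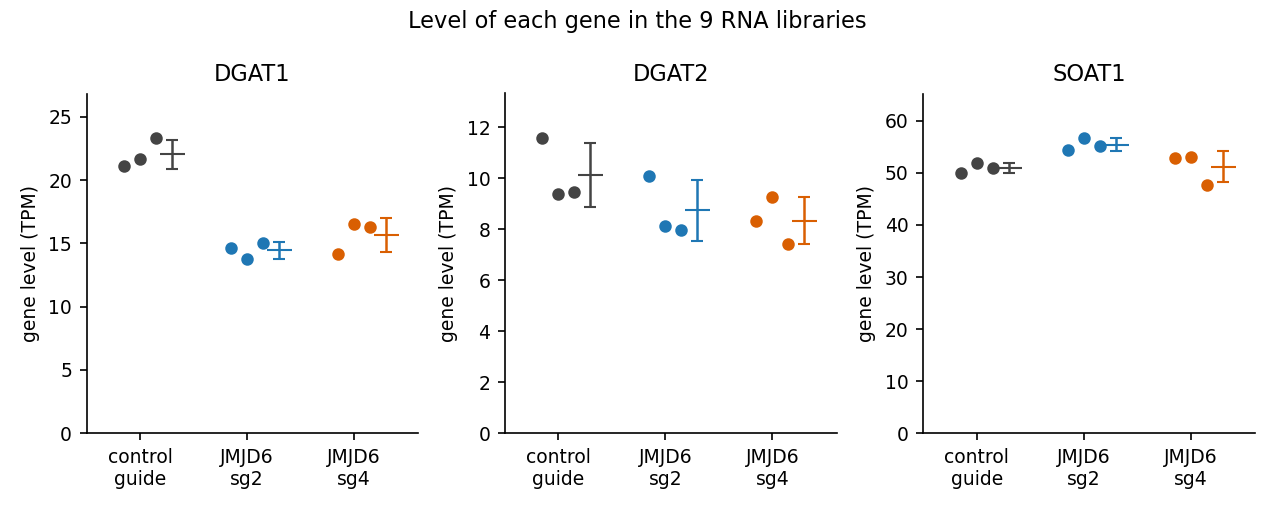
Gene level in TPM (vertical axes, from 0, a separate scale for each gene) of DGAT1, DGAT2 and SOAT1 in the control, sg2 and sg4 libraries. Each point is 1 library, and the dash with bars beside each group is the mean ± SD (n = 3). All 6 knockout points of DGAT1 lie below its 3 control points. For DGAT2, the sg2 points overlap those of control and those of sg4, while the 3 sg4 points lie below all control points. For SOAT1, the control and sg4 points overlap, and the 3 sg2 points lie above both.

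DGAT1 fell with each guide. Its level was 21.1, 21.6 and 23.3 TPM in the control libraries, 14.6, 13.7 and 15.1 TPM with sg2, and 14.2, 16.5 and 16.3 TPM with sg4. All 6 knockout libraries were below every control library, a pattern shown in CPM (counts scaled to the effective library size) by 7.18% of the genes tested. The estimated counts behind these levels were 563, 603 and 573 in control, 427, 355 and 399 with sg2, and 413, 478 and 479 with sg4.

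Against control, the log2 fold change of DGAT1 was -0.58 ± 0.091 (SE) with sg2 (95% interval -0.76 to -0.39, edgeR adjusted p = 1.52e-04). With sg4 it was -0.41 ± 0.089 (95% interval -0.59 to -0.22, edgeR adjusted p = 0.00541). In the mean of both guides it was -0.49 ± 0.077 (95% interval -0.65 to -0.33, edgeR adjusted p = 1.14e-04), a level of 0.71 of control with an interval of 0.64 to 0.79. Of the 13530 genes tested, 5.36% were called lower with sg2, 3.78% with sg4 and 6.95% in the mean of both guides, and DGAT1 was the 1 gene of the 3 acyltransferases among them in each case. The 2 guide comparisons share the same 3 control libraries, and 301 genes, 2.22% of those tested, were called lower in both.

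The difference in DGAT1 between the guides, sg4 minus sg2, was 0.17 ± 0.092 on the log2 scale (95% interval -0.02 to 0.36, edgeR adjusted p = 0.553). In that comparison 0.0591% of all genes were called. JMJD6 itself differed by -0.45 ± 0.11 between the guides (sg4 minus sg2, edgeR adjusted p = 0.258), so the guide with the lower mean of JMJD6 had the higher mean of DGAT1, and neither difference passed the test. The JMJD6 difference between guides did pass with no filter on low counts, at the same -0.45 (edgeR adjusted p = 0.0405).

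In RNA from whole cultures, fewer cells that express DGAT1 and less DGAT1 RNA per cell cannot be told apart. The summed level of 4 fibroblast markers (COL1A1, COL1A2, LUM and DCN) was 9.0 to 34.4 TPM in control, 6.15 to 7.89 TPM with sg2 and 5.56 to 9.48 TPM with sg4, and COL1A2 was highest in control library 1, at 7.49 TPM, and in sg4 library 3, at 1.02 TPM. CD68 was also higher in control, at 65.3 to 85.3 TPM against 50.4 to 61.5 TPM in the knockout libraries. Without control library 1 and sg4 library 3, the log2 fold change of DGAT1 in the mean of both guides was -0.54 ± 0.095 (edgeR adjusted p = 9.34e-04). The part of CD68 in the result was not tested.

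DGAT1 is represented by 1 transcript, NM_012079, of 3721 bases, so its gene and transcript levels are identical. In the fit across 34794 transcripts, NM_012079 had a log2 fold change of -0.49 ± 0.070 in the mean of both guides (edgeR adjusted p = 4.67e-05), where 3.76% of transcripts were called lower. In the RefSeq gene table, DGAT1 overlaps its neighbour HSF1, the heat shock transcription factor, by 137 bases, and whether reads were assigned by strand is not given in the sources used here. HSF1 itself had a log2 fold change of -0.07 and did not pass the test.

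DGAT2, the second diacylglycerol acyltransferase, did not pass the test with either guide. Its level was 11.6, 9.37 and 9.45 TPM in control, 10.1, 8.14 and 7.98 TPM with sg2, and 8.33, 9.27 and 7.42 TPM with sg4. The groups overlapped because sg2 library 1 lay above 2 of the controls, while the other 5 knockout libraries were below every control library in TPM. In CPM, 4 of the 6 knockout libraries were below every control library. The counts were fewer than for the other two genes, at 190, 160 and 143 in control, 183, 129 and 131 with sg2, and 149, 165 and 134 with sg4.

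The log2 fold change of DGAT2 was -0.18 ± 0.15 with sg2 (95% interval -0.48 to 0.13, edgeR adjusted p = 0.511) and -0.20 ± 0.15 with sg4 (95% interval -0.50 to 0.10, edgeR adjusted p = 0.453). In the mean of both guides it was -0.19 ± 0.13 (95% interval -0.45 to 0.07, edgeR adjusted p = 0.369). That interval holds 0 and overlaps the DGAT1 interval of -0.65 to -0.33, so at this depth a DGAT2 change of 0 and one as large as the smaller values of the DGAT1 interval could not be told apart. The DGAT2 value depended on control library 1, the highest of the 9, and it was -0.07 without that library.

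DGAT2 has 2 transcripts in the tables. NM_032564, of 2454 bases, gave 60.1% ± 4.25 of DGAT2 TPM in control, 60.5% ± 6.03 with sg2 and 58.4% ± 3.68 with sg4 (SD, n = 3). NM_001253891, of 2325 bases, gave the rest. Neither passed the transcript test in the mean of both guides, with log2 fold changes of -0.19 for NM_032564 (edgeR adjusted p = 0.468) and -0.17 for NM_001253891 (edgeR adjusted p = 0.584). The share of NM_032564 differed by -0.61 percentage points between the knockout and control libraries (exact permutation p = 0.929, 2-sided).

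SOAT1, the cholesterol acyltransferase, was slightly higher in most knockout libraries and did not pass the test. Its level was 49.9, 51.9 and 50.9 TPM in control, 54.4, 56.7 and 55.2 TPM with sg2, and 52.8, 53.1 and 47.7 TPM with sg4. All 3 sg2 libraries and 2 of the sg4 libraries were above every control library, and sg4 library 3 was below every control library in TPM. In CPM, sg4 library 3 fell within the control range, at 177 against 170 to 181. The 2 measures scale libraries differently. Over all genes tested, the median log2 fold change of sg4 minus control was -0.092 on TPM and -0.0085 in the count fit.

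The log2 fold change of SOAT1 was 0.15 ± 0.056 with sg2 (95% interval 0.03 to 0.26, edgeR adjusted p = 0.0930), 0.09 ± 0.056 with sg4 (95% interval -0.02 to 0.21, edgeR adjusted p = 0.349) and 0.12 ± 0.049 in the mean of both guides (95% interval 0.02 to 0.22, edgeR adjusted p = 0.109). Of all genes tested, 6.92% were called higher in the mean of both guides. With a correction for gene length the value was 0.15 and passed (edgeR adjusted p = 0.0340), and in a test on TPM it was 0.06 (limma adjusted p = 0.471).

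SOAT1 RNA was spread over 4 transcripts of similar length. In control, NM_003101 gave 34.7% ± 1.48 of SOAT1 TPM, NM_001252511 gave 23.0% ± 1.09, NM_001252512 gave 22.9% ± 0.483 and the noncoding NR_045530 gave 19.4% ± 0.262 (SD, n = 3). NM_001252512 was called higher in the mean of both guides, by 0.22 ± 0.063 on the log2 scale (edgeR adjusted p = 0.0317), in a fit where 4.19% of transcripts were called higher. It also passed with sg2 alone, at 0.24 ± 0.072 (edgeR adjusted p = 0.0491), where 2.95% of transcripts were called higher. The call in the mean of both guides was lost when any 1 of 6 libraries was left out (control 1, 2 or 3, sg2 1 or 2, or sg4 2), with adjusted p of 0.0501 to 0.157. The log2 fold changes of the other transcripts were 0.03 for NM_003101 (edgeR adjusted p = 0.848), 0.15 for NM_001252511 (edgeR adjusted p = 0.193) and 0.13 for NR_045530 (edgeR adjusted p = 0.227).

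The share of NM_003101 in SOAT1 was 32.9% ± 0.363 with sg2 and 32.4% ± 1.34 with sg4 (SD, n = 3). Over the 6 knockout libraries it differed from control by -2.11 percentage points (exact permutation p = 0.0714, 0.533 adjusted over 8 tests of transcript shares, 2-sided). The share of NM_001252512 was 22.5% to 23.4% in control, 24.0% to 24.7% with sg2 and 24.1% to 25.0% with sg4. It did not overlap with control, was picked after the values were seen and was not tested. The shares of NM_001252511 and NR_045530 overlapped between groups. These 4 transcripts share most of their sequence, so how reads were divided among them depends on the authors' estimation.

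**Figure D2:**
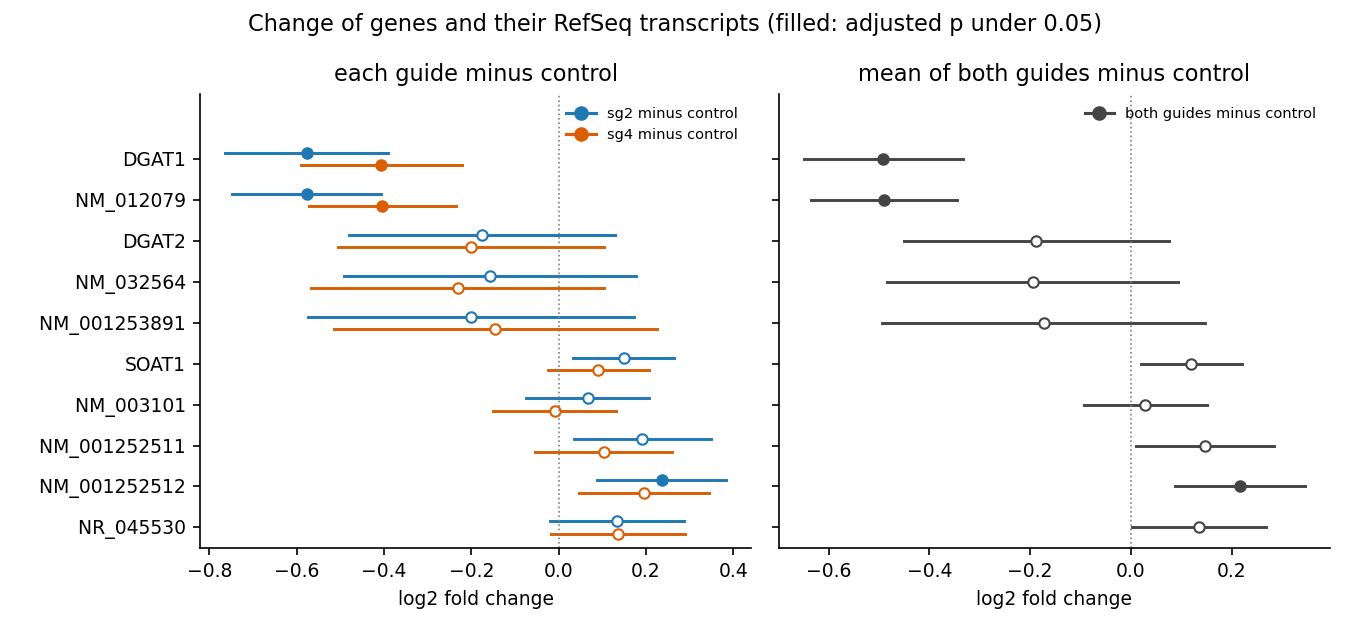
Log2 fold change (horizontal axes) with its 95% interval for each gene and, indented below it, each of its RefSeq transcripts, for sg2 and sg4 separately on the left and for the mean of both guides on the right. Filled points passed an adjusted p of 0.05 in the edgeR fit. DGAT1 and its transcript lie at -0.40 to -0.58 with intervals clear of 0, the intervals of DGAT2 hold 0, and of the SOAT1 transcripts NM_001252512 is filled for sg2 and for the mean of both guides.

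Whether DGAT1 and DGAT2 changed unequally was asked through their share within each library. DGAT1 made up 64.6%, 69.8% and 71.2% of the summed DGAT1 and DGAT2 TPM in the control libraries, 59.1%, 62.8% and 65.4% with sg2, and 63.0%, 64.1% and 68.7% with sg4. The groups overlapped, since control library 1 lay below sg2 library 3 and sg4 library 3. DGAT1 therefore remained the more abundant of the pair in every library, at 1.45 to 2.47 times DGAT2.

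The mean share was 68.5% ± 3.48 in control, 62.4% ± 3.15 with sg2 and 65.3% ± 3.05 with sg4 (SD, n = 3). The 6 knockout libraries differed from control by -4.69 percentage points (exact permutation p = 0.0714, 0.267 adjusted over 4 comparisons, 2-sided, where the smallest p possible is 0.0238). With sg2 the difference was -6.10 points and with sg4 it was -3.27 points (exact permutation p = 0.2 for each, where 3 libraries against 3 cannot go below 0.1). A larger fall of DGAT1 than of DGAT2 was therefore not established. The summed level of both genes was 31.0 to 32.8 TPM in control and 21.9 to 25.8 TPM in the knockout libraries, with no overlap. DGAT1, the larger part of that sum, was without overlap by itself, so the sum is not a separate result.

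Measured against SOAT1 in the same library, DGAT1 separated the groups, as it did by itself. SOAT1 was 2.31 ± 0.117 times DGAT1 in control, 3.84 ± 0.255 times with sg2 and 3.29 ± 0.404 times with sg4 (SD, n = 3), and the control libraries did not overlap with the others. The log2 ratio of DGAT1 to SOAT1 differed by -0.62 between the 6 knockout libraries and control (exact permutation p = 0.0238, 0.0714 adjusted over the 3 pairs of genes, 2-sided). The unadjusted value is the smallest that 3 libraries against 6 can give, and this comparison was chosen after the levels had been seen. DGAT1 was without overlap by itself and SOAT1 changed little, so the ratio is not a separate result. The log2 ratios of DGAT1 to DGAT2 and of DGAT2 to SOAT1 differed by -0.30 and -0.31 (exact permutation p = 0.0714 for each), and both overlapped between groups.

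**Figure D3:**
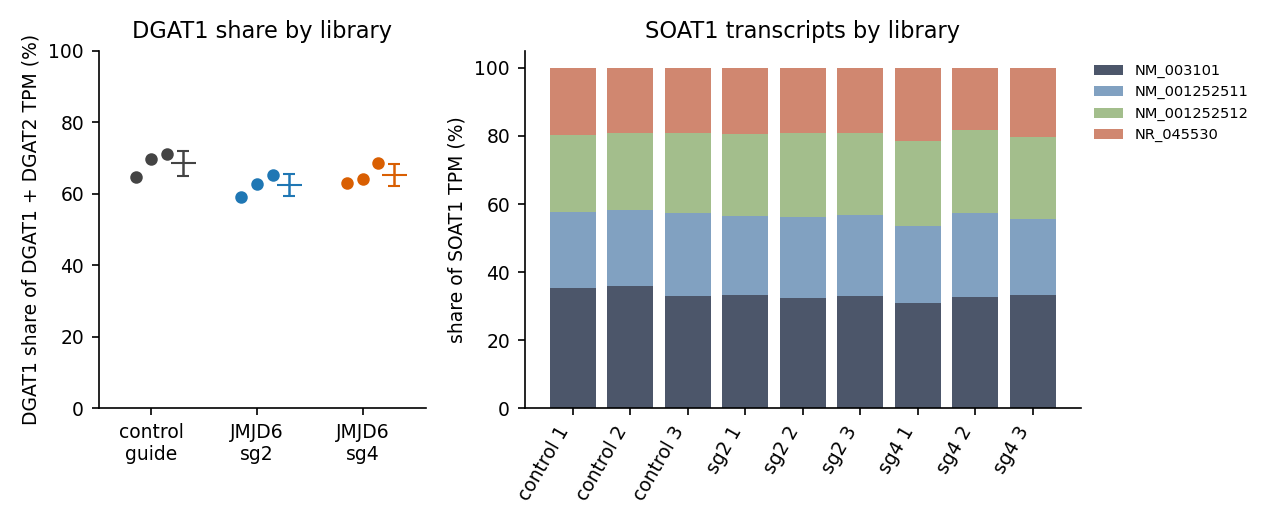
Left, DGAT1 as a percentage of the summed DGAT1 and DGAT2 TPM in each library, with the mean ± SD (n = 3) beside the points of each group. Right, percentage of SOAT1 TPM given by each of its 4 transcripts, stacked to 100 for each of the 9 libraries. The DGAT1 share is above 59% in every library and overlaps between groups, and the 4 transcript shares of SOAT1 keep the same leading transcript, NM_003101, in all 9 libraries.

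A JMJD6 peak lay at the DGAT1 start in 4 of 4 JMJD6 ChIP libraries. Peaks were called by the authors in each library separately, fold enrichment and q-values are those of their peak caller, and coordinates are hg19. In sequencing batch 1 the peaks were chr8:145550409-145550885 (16.2-fold, -log10 q of 40.0) in library 1 and chr8:145550342-145550967 (19.2-fold, -log10 q of 65.0) in library 2. In sequencing batch 2 they were chr8:145550431-145550808 (15.6-fold, -log10 q of 47.0) in library 3 and chr8:145550421-145550949 (17.7-fold, -log10 q of 45.7) in library 4. Both batches thus held the peak at similar heights, and the 4 intervals share 378 bases.

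The 4 summits lay within 69 bases of each other. Within their own lists the DGAT1 peaks ranked 198 of 978, 165 of 1344, 250 of 923 and 221 of 1139 by fold enrichment. Of 1689 regions with a JMJD6 peak in any library, 685 had one in all 4 libraries, and the DGAT1 region ranked 188 among those 685 by mean fold enrichment, at 17.2-fold against a median of 12.1-fold. The nearest other JMJD6 peak was 184 kb away in libraries 1, 2 and 3 and 104 kb away in library 4. The usual spacing of JMJD6 peaks over the genome was not examined here.

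The JMJD6 peak sat inside a wider H3K4me3 peak. H3K4me3 covered chr8:145549205-145551289 at 80.2-fold in library 1 and chr8:145549075-145551283 at 102-fold in library 2. Of the 16218 regions with H3K4me3 in both libraries, 562 or 3.47% (exact 95% interval 3.19% to 3.76%) held a JMJD6 peak in all 4 libraries, and 7.38% held one in at least 1. The mean H3K4me3 enrichment at DGAT1 was at or above that of 81% of these regions, and among the 3082 regions with as much H3K4me3, 5.35% held JMJD6 in all 4 libraries.

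The start sites of the other two genes carried H3K4me3 and no JMJD6 peak. At DGAT2, H3K4me3 peaks were chr11:75479329-75480268 at 17.7-fold and chr11:75479350-75480271 at 19.9-fold, and 0 of 4 JMJD6 libraries had a peak within 5 kb. At SOAT1, whose start sequence is given above, H3K4me3 peaks were chr1:179262449-179265096 at 41.7-fold and chr1:179262432-179264793 at 64.2-fold, and again 0 of 4 JMJD6 libraries had a peak within 5 kb. The nearest JMJD6 peak was 369 to 676 kb from the DGAT2 start and 584 to 1740 kb from the SOAT1 start. A region without a listed peak is one below the authors' threshold, and its JMJD6 signal was not analysed here.

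H3K4me3 was lower at DGAT2, the least expressed of the 3 genes, but its order did not follow RNA for the other two. DGAT1 had the most H3K4me3, with a mean of 91.1-fold against 52.9-fold at SOAT1 and 18.8-fold at DGAT2, whereas SOAT1 had the most RNA. No hg19 gene annotation was used here, so the starts were placed from their general chromosomal position. As a check, the H3K4me3 summits assigned to HSF1 and DGAT1 were 34.5 and 34.4 kb apart in the 2 libraries, against 35.2 kb between the outer ends of these 2 genes in the RefSeq table. Immunoprecipitation in JMJD6 knockout cells was not analysed here.

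**Figure D4:**
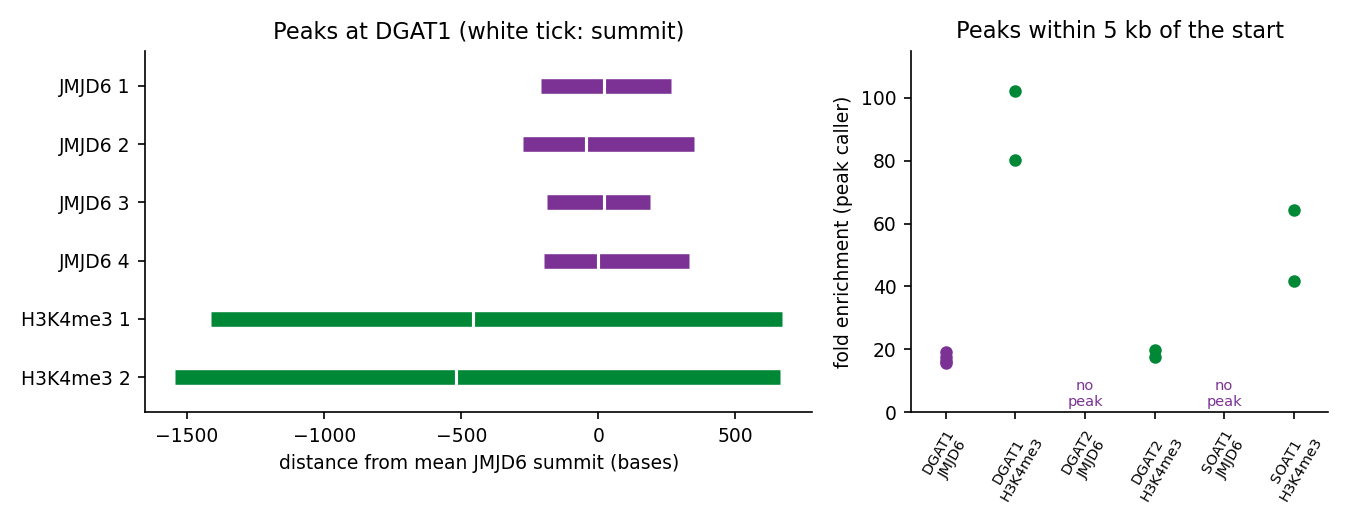
Left, extent of the called peaks at DGAT1 in the 4 JMJD6 and 2 H3K4me3 libraries, in bases from the mean of the JMJD6 summits, with a white tick at each summit. Right, fold enrichment (linear axis from 0) of the peaks within 5 kb of the start of each gene, 1 point per library. The 4 JMJD6 intervals overlap at one place within both H3K4me3 intervals, and JMJD6 points are present for DGAT1 alone among the 3 genes.

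Around these 3 enzymes, 7 lists covered 78 genes of the same families and of the pathways that supply, share and store their products. Of the 59 that could be tested, 7 rose and 2 fell in the mean of both guides, which is 15.3% against 13.9% of all genes tested, and the median log2 fold change was -0.01 in the lists and -0.01 over all genes. The number called depended on the setting, at 2 without control library 1, 4 without control library 2 and 3 without control library 1 and sg4 library 3. Calls over all genes fell as well, from 1877 to 938 without control library 1 and to 788 without that pair. With the length correction 13 genes of the lists were called, where 956 of all genes were called higher and 970 lower. In the main fit the share called in the lists is thus near the background.

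The relatives of DGAT1 and SOAT1 by family gave no call in the main test. Of 9 other MBOAT genes, 6 could be tested and neither edgeR nor DESeq2 called any (0 genes) for both guides averaged, with 1 at an unadjusted p under 0.05. That gene was MBOAT2, an acyltransferase of lysophospholipids named here after its values were seen, at 0.19 ± 0.066 (edgeR adjusted p = 0.0504). MBOAT2 passed in 5 of 17 alternatives (DESeq2 size factors in edgeR, no filter, the length correction with and without the replicate block, and sg4 library 3 left out), with adjusted p of 0.0155 to 0.0475. SOAT2, the second cholesterol acyltransferase, reached at most 0.361 TPM and was not tested. The 6 other members of the DGAT2 family (MOGAT1, MOGAT2, MOGAT3, AWAT1, AWAT2 and DGAT2L6), which acylate monoacylglycerol or wax alcohols, were listed at 0 in all 9 libraries, so DGAT2 was the one member of its family with RNA listed above 0. Among 5 other genes of ester synthesis and its control, PNPLA3, a lipase and acyltransferase of lipid droplets, rose by 0.70 ± 0.20 (edgeR adjusted p = 0.0234), from 2.04 ± 0.373 TPM in control to 3.32 ± 0.202 with sg2 and 3.0 ± 0.200 with sg4 (SD, n = 3). The PNPLA3 call was lost without control library 1, without control library 2, and without control library 1 and sg4 library 3, with adjusted p of 0.0582 to 0.124.

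Of 13 genes of the glycerol phosphate route that supplies diacylglycerol, 12 were tested and 1 fell, where 6.95% of all genes tested fell. That gene was LPIN3, a phosphatidate phosphatase, at -0.31 ± 0.077 (edgeR adjusted p = 0.00860), and its call was lost without control library 1 or without control library 3. Of 12 other enzymes that make or use diacylglycerol, 2 rose and 1 fell, where 6.92% of all genes tested rose and 6.95% fell. PLPP3, a lipid phosphate phosphatase, rose by 0.31 (edgeR adjusted p = 0.0196), SELENOI, which makes phosphatidylethanolamine from diacylglycerol, rose by 0.24 (edgeR adjusted p = 0.0118), and DGKQ, a diacylglycerol kinase, changed by -0.28 (edgeR adjusted p = 0.0363). The DGKQ call was lost in 13 of 17 alternatives, and those of PLPP3 and SELENOI were each lost without control library 1 and without control library 2, and PLPP3 also without control library 3 and without control library 1 and sg4 library 3. Both were also lost in the limma test on TPM, with adjusted p of 0.205 for SELENOI and 0.0694 for PLPP3.

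Among lipid droplet and lipolysis genes, 16 of 21 were tested and 1 was called, where 13.9% of all genes tested were called. G0S2, an inhibitor of the triacylglycerol lipase ATGL, rose by 0.73 ± 0.10 (edgeR adjusted p = 2.83e-05), from 81.1 ± 6.62 TPM in control to 125 ± 22.3 with sg2 and 130 ± 18.4 with sg4 (SD, n = 3), and all 6 knockout libraries were above every control, as for 7.76% of the genes tested. Among 12 genes that handle cholesterol and its esters, 8 were tested and 3 rose, where 6.92% of all genes tested rose. NCEH1, a hydrolase of cholesterol esters and so of the SOAT1 product, rose by 0.37 ± 0.053 (edgeR adjusted p = 4.26e-05), from 49.0 ± 2.3 TPM in control to 59.8 ± 1.19 with sg2 and 62.0 ± 3.92 with sg4 (SD, n = 3). NPC2, a lysosomal cholesterol carrier, rose by 0.17 (edgeR adjusted p = 0.0456). G0S2 and NCEH1 passed in each of 17 alternatives, whereas NPC2 was lost in 11, among them without control library 1, 2 or 3, sg2 library 1 or sg4 library 2 or 3.

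Genes near DGAT1 on chromosome 8 were examined as well, as a chosen list with gaps to DGAT1 of up to 485 kb. The list was not drawn to hold every gene of that span, so its share of calls is not a rate for the region. Of 16 neighbours, 14 were tested, 4 fell and 0 rose in the mean of both guides, where 6.95% of all genes fell, and the median log2 fold change of the 14 was -0.06. DESeq2 called 0 higher too, and 1 was higher at an unadjusted p under 0.05. With sg2 alone 5 fell, where 5.36% of all genes fell, and with sg4 alone 3 fell, where 3.78% did. The 4 that fell in the mean of both guides were GPAA1, a subunit of the GPI transamidase, at -0.42 (edgeR adjusted p = 2.33e-06), CPSF1, a cleavage and polyadenylation factor, at -0.35 (edgeR adjusted p = 7.03e-05), KIFC2, a kinesin, at -0.35 (edgeR adjusted p = 0.00214), and SHARPIN, a subunit of the linear ubiquitin ligase, at -0.32 (edgeR adjusted p = 6.70e-04).

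These 4 genes passed in each of 17 alternatives. In the RefSeq table their gaps to DGAT1 are 66.4 kb for CPSF1, 139 kb for KIFC2, 211 kb for SHARPIN and 228 kb for GPAA1, while the tested genes nearer to DGAT1, among them HSF1, BOP1 and SLC52A2, were not called in the mean of both guides. Of these nearer genes ADCK5, a kinase-like protein 46.2 kb from DGAT1, was the fifth gene that fell with sg2 alone, at -0.48 ± 0.15 (edgeR adjusted p = 0.0467). In the mean of both guides ADCK5 was at -0.32 ± 0.13 (edgeR adjusted p = 0.104), and it passed without control library 3, at -0.45 (edgeR adjusted p = 0.0403). Farther out, ZFTRAF1 (123 kb), MAF1 (207 kb), CYC1 (217 kb) and PUF60 (485 kb) were tested and not called in the mean of both guides. No tested neighbour had a log2 fold change as low as the -0.49 of DGAT1.

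**Figure D5:**
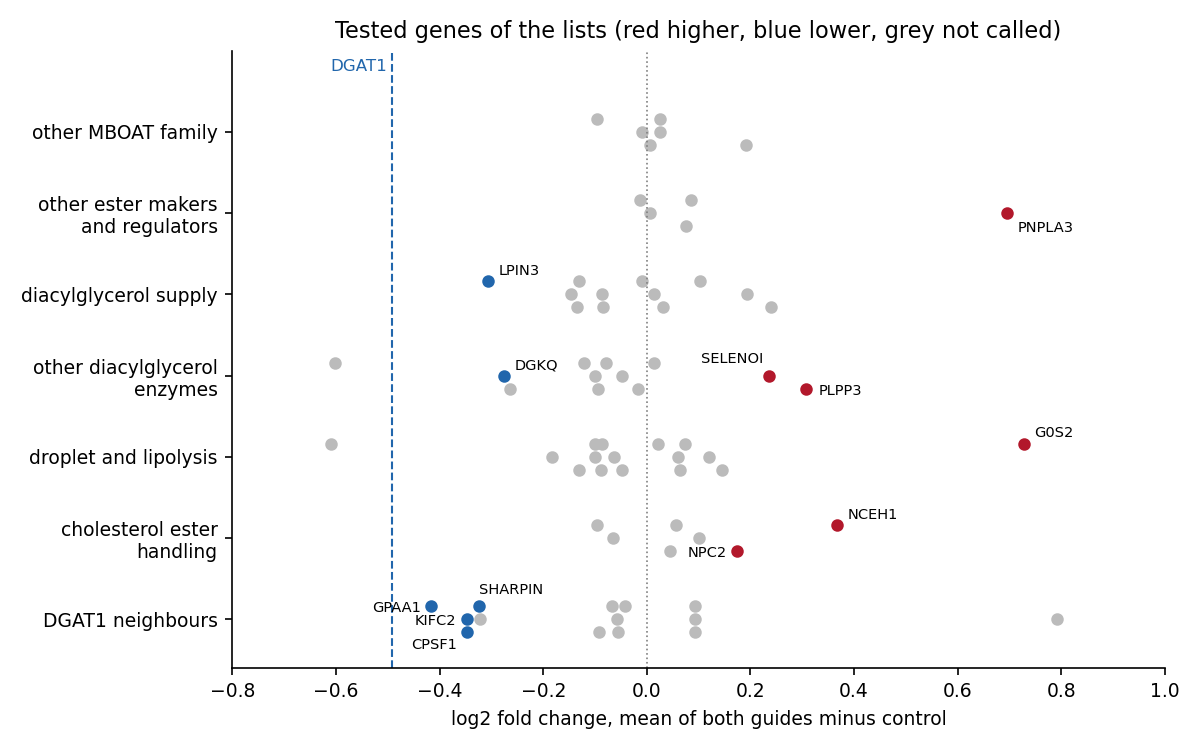
Log2 fold change in the mean of both guides against control (horizontal axis) for the tested and reported genes of the pathway lists and of the DGAT1 neighbours, 1 point per gene, with points spread vertically to keep them apart. Red points rose and blue points fell at an edgeR adjusted p under 0.05, and the dashed line marks DGAT1 at -0.49. G0S2 and PNPLA3 are the farthest called points to the right, and the blue points of the neighbours lie between -0.32 and -0.42.

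The genes whose pattern over the 9 libraries was most like each acyltransferase were found by the root mean square difference of centred log2 CPM. For DGAT1 they were COQ8B (0.0612), MRC2 (0.0654), GSDMD (0.0669), UAP1L1 (0.0712) and MAP4K2 (0.0742), of 11279 candidates. For DGAT2 they were ZNF646 (0.0720), LIN52, TRAPPC6B, DUBR and AVEN, of 12929 candidates. For SOAT1 they were PCMT1 (0.0263), PIGN, VCL, HNRNPM and SLC30A9, of 11279 candidates. The nearest patterns of DGAT1 had log2 fold changes of -0.40 to -0.51 in the mean of both guides, and those of SOAT1 of 0.11 to 0.17. The genes were picked by pattern over the same 9 libraries, so changes close to those of each acyltransferase follow from the choice.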

How the data were processed

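Per the labels, RNA from 786-O cells was sequenced in 9 libraries (3 control, 3 sg2, 3 sg4), and peaks were called in 4 JMJD6 and 2 H3K4me3 ChIP libraries. Per the submitters' processing notes, the tools included cutadapt 1.12, STAR 2.5.2b, Salmon, DESeq2 and MACS2 2.1.2, with build hg19. The authors deposited estimated counts and TPM per RefSeq transcript, and the strand setting and annotation are not given in the sources used here. Peak fold enrichment (a ratio) and −log10 p and q were deposited by the authors for each library. Input libraries were not used here.

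Counts and TPM were summed per gene after matching 58031 of 60422 transcripts (96.0%) to symbols; unmatched transcripts held 1.33% to 1.65% of the counts and were left out. All estimated counts were whole numbers. Depth was 14224263 to 16300347 counts per library. Genes (13530) and transcripts (34794) that passed filterByExpr were tested with edgeR 4.0.16 (TMM, quasi-likelihood, 9 libraries in 1 fit, Benjamini-Hochberg adjusted p under 0.05). Shares and ratios were compared with exact permutation tests (scipy 1.17.1). Alternatives used DESeq2 1.42.0, limma 3.58.1 on log2(TPM + 0.1), no filter, a length correction, a replicate block and each library left out. The fitting script was tested on simulated data.

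The named genes were the 3 acyltransferases, JMJD6, every called member of the family, ester and neighbour lists, up to 3 called members of each other list by size of change, and the 5 genes nearest in pattern to each acyltransferase. SOAT2, MBOAT2, HSF1, BOP1, SLC52A2, ADCK5, ZFTRAF1, MAF1, CYC1, PUF60 and the untested DGAT2 relatives fall outside that rule. They were chosen after their values were seen. One gene of the cholesterol list is counted in the totals and is not reported here. Members and lists were chosen with earlier results of these data known. The treatment text of the labels describes small interfering RNAs, whereas titles and extraction protocol name guides; groups follow the titles.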

Additional observations from a re-analysis of the deposited data

How the results depend on the processing

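DGAT1 kept its direction and passed the threshold with each guide and in the mean of both in every alternative that gave it an adjusted p, with log2 fold changes of -0.55 to -0.44 in the mean of both guides. With sg4 alone it ranged from -0.45 to -0.31 with each library left out, with a highest adjusted p of 0.0369. DGAT2 did not pass in any alternative, and its difference between guides changed sign, from -0.11 to 0.095 with each library left out and to 0.041 without control library 1 and sg4 library 3, a pair chosen after seeing the data. Its value in the mean of both guides was -0.04 without that pair. SOAT1 passed under the length correction, at 0.15 (adjusted p = 0.0340), and under the length correction with the replicate block, at 0.15 (adjusted p = 0.0350); the cause was not tested. Of 9 same-numbered pairs of libraries, 0 had a correlation of deviations over 0.1 (-0.215 to 0.0956). Low correlations cannot show that libraries were not handled in pairs, and differently numbered libraries reached 0.189 (control 3 with sg4 1). With the replicate block, DGAT1 was at -0.49 (adjusted p = 4.83e-04) and the genes called in the mean of both guides numbered 1527 against 1877. The count of called genes in the 7 lists was 3 without control library 1 and sg4 library 3 and ranged from 2 to 11 with each library left out. It was 13 with the length correction. The log2 ratio of DGAT1 to SOAT1 ranged from -0.67 to -0.57 with each library left out; without a control library the smallest p possible is 0.0714, so it could not pass. The log2 ratio of DGAT2 to SOAT1 ranged from -0.38 to -0.20 and passed unadjusted without sg2 library 1 (exact permutation p = 0.0357). Values near 0 that changed sign with a library left out were the NM_003101 transcript change, from -0.020 to 0.083, the NM_003101 share between guides, from -1.0 to 0.28 points, and the NM_032564 share, which ranged over -2.95 to 1.18 points for both guides, -1.93 to 3.90 points for sg2, and -3.98 to 0.15 points for sg4.

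Over all genes, called counts in the mean of both guides fell to 938 without control library 1, 1045 without control library 3 and 788 without control library 1 and sg4 library 3. With sg2 they were 1402, against 877 by limma, 735 without control library 1, 777 without sg2 library 1, 864 without sg2 library 2 and 731 without that pair. With sg4 they were 1141, against 619 without control library 1, 626 without control library 3, 606 without sg4 library 3 and 294 without that pair. Between guides they were 8, against 38 by DESeq2, 72 without the filter, 13 with the length correction, 2 with the replicate block, 1 by limma, 0 without that pair and 0 to 49 with each library left out. JMJD6 peak calls at the 3 starts were the same at windows of 1 and 50 kb and at −log10 q of at least 5. Depth limits DGAT2 most, at 129 to 190 counts per library.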
